A study of Mus musculus with 8 samples.

Results

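The genes described here are 10 of the cellular response to low oxygen: the hypoxia-inducible factor subunits Hif1a and Epas1, the oxygen sensors Egln1 and Egln3, and 6 genes known to be induced by hypoxia, Ndufa4l2, Bnip3, Car9, Ankrd37, Adm and Ddit4. They were chosen by the counts of these same libraries: Ndufa4l2 and Adm were strongly lower in HOMO, and the other 8 stand with them as genes of the same pathway. The levels of Ndufa4l2 and Adm are therefore given as a description, and no test of their difference between HOMO and WT is reported. They are 10 of the 54532 entries of the count table, of which 27324 had at least 1 count, and all 10 passed the filter on low counts and were among the 14150 genes tested.

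RNAseq was performed on primary lung fibroblasts (pFBs), the matrix-producing cells that grow out of minced lung tissue in culture, from wild type (WT) mice and from mice homozygous (HOMO) for a human IGFBP5 (hIGFBP5) transgene. IGFBP5 is a secreted protein that binds insulin-like growth factors and is linked to fibrosis, and the study asked which genes differ in fibroblasts that express the human protein. The transgene was placed by CRISPR/Cas9 knock-in and is driven by the Ef1a1 promoter, which is active in nearly all cells. Each genotype had 4 libraries, named WT1 to WT4 and HOMO1 to HOMO4. All came from female mice of the C57/black background, and all cells were grown in the same serum-containing medium with no further treatment. The oxygen level of the cultures, the age of the mice and the number of mice or cultures behind a library are not given in the sources used here, so the p-values below measure the spread between these libraries.

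Hypoxia-inducible factors are dimers of an oxygen-regulated alpha subunit, such as HIF1A or EPAS1, and a constant partner, ARNT. When oxygen is present, prolyl hydroxylases of the EGLN family mark the alpha subunits and the VHL ubiquitin ligase has them destroyed. When oxygen is scarce the alpha subunits persist and bind the core letters ACGTG or GCGTG in gene promoters, and raise genes for glycolysis, blood vessel growth, collagen modification and mitochondrial turnover. Since the alpha subunits are governed by their stability, the mRNA level of Hif1a or Epas1 is not a measure of the activity of the factor. In the lung the pathway is known for its part in vascular remodelling and in fibrosis, where fibroblasts lay down matrix in poorly oxygenated tissue.

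The promoters of the members were searched for both core letters, because these are the letters that hypoxia-inducible factors bind. RefSeq promoter windows of the GRCm38.p6 build were found for 8 of the 10 members, and not for Epas1 and Ndufa4l2. In the 250 bases before the RefSeq start site, all 8 held at least 1 match to ACGTG or GCGTG on either strand, with 1 to 5 matches each. Such a match stood in 12679 of the 32851 promoter windows in the table, or 38.6%, with ACGTG in 16.6% and GCGTG in 28.2% of them. The windows are shown for Adm, the member with the highest level per length in WT, for Egln3, the tested member that was called, and for Bnip3, which held the most matches. Each is written from 5′ to 3′ on the strand of its gene, and capitals mark ACGTG or GCGTG read on either strand (CACGT and CACGC are the same letters read on the other strand).
Adm: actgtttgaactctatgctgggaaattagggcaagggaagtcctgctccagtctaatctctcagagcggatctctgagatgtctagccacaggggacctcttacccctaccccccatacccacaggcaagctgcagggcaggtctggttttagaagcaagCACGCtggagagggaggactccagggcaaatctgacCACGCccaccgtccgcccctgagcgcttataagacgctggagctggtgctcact
Egln3: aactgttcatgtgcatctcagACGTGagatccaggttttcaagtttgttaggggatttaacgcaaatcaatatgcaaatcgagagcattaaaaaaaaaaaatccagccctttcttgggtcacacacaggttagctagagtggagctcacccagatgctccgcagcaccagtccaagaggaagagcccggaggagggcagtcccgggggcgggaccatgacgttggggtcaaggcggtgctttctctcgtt
Bnip3: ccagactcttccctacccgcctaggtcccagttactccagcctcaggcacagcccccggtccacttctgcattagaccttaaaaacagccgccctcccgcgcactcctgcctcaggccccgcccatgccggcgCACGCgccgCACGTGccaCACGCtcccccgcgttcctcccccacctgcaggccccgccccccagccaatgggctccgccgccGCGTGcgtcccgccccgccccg
The Adm window is chr7:110627407-110627656 on the plus strand and held 2 matches, both GCGTG on the opposite strand. The Egln3 window, chr12:54203875-54204124 on the minus strand, held 1 match, to ACGTG. The Bnip3 window, chr7:138909520-138909756 on the minus strand, was trimmed to 237 bases where the annotated gene begins and held 5 matches, of which an ACGTG on each strand overlap in the palindrome CACGTG. Among the others, Ankrd37 held 4 matches, Hif1a 3, Egln1 and Ddit4 2 each and Car9 1. A match is a description of the letters and not evidence that a factor was bound in these cells.

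The libraries held 17236521 to 29028769 counts in WT and 19009027 to 31987790 in HOMO. They did not scatter evenly. The biological coefficient of variation was 4.71% to 7.65% within WT1 and WT2, within HOMO1 and HOMO2 and within HOMO3 and HOMO4, and 30.0% to 56.4% within every other combination of the same genotype. The counts of these close libraries still differed by more than sampling noise, and each was kept as a replicate. That difference does not show that they came from separate mice or cultures, and they may share one. With these close libraries summed, 0 of the 16130 genes then tested were called, by the thresholds given below. WT3 and WT4 stood apart from WT1 and WT2 and from each other. Macrophage markers moved with that split: the summed level of 6 markers was 112 CPM (counts scaled to a common library total) in WT1, 144 in WT2, 1904 in WT3 and 1123 in WT4, and 23.8 to 160.1 CPM in HOMO. Fibroblast markers summed to 19040 to 25800 CPM in WT and 19257 to 32079 in HOMO, and endothelial markers to at most 7.81 CPM in any library.

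Of the 8 members not chosen by their values, 1 was differentially expressed between HOMO and WT, Egln3, which was lower in HOMO. Ndufa4l2 and Adm were lower too, as the choice of the set fixed. Calls needed an edgeR adjusted p (Benjamini-Hochberg) below 0.05 together with a log2 fold change beyond 0.6 in either direction. Of all genes tested 12.1% were called, 6.18% as lower and 5.94% as higher in HOMO. The groups did not overlap in 1 of the 8, again Egln3, beside 27.3% of all genes, so neither count of the 8 stands above the background. Their median log2 fold change was -0.41, against -0.04 over all 14150 genes. In bulk RNA, fewer cells of a type and less RNA per cell cannot be told apart. Per kilobase of exon, Adm had the highest WT level of the members, at 206 CPM per kb, followed by Hif1a at 45.0, Egln1 at 32.1, Bnip3 at 21.5, Ddit4 at 20.3 and Ndufa4l2 at 13.7. Egln3, Epas1, Ankrd37 and Car9 lay between 0.471 and 2.96 CPM per kb in WT. In HOMO, Hif1a was the highest at 63.2 CPM per kb and Adm stood at 27.2, while Ndufa4l2 was the lowest at 0.0799.

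**Figure D1:**
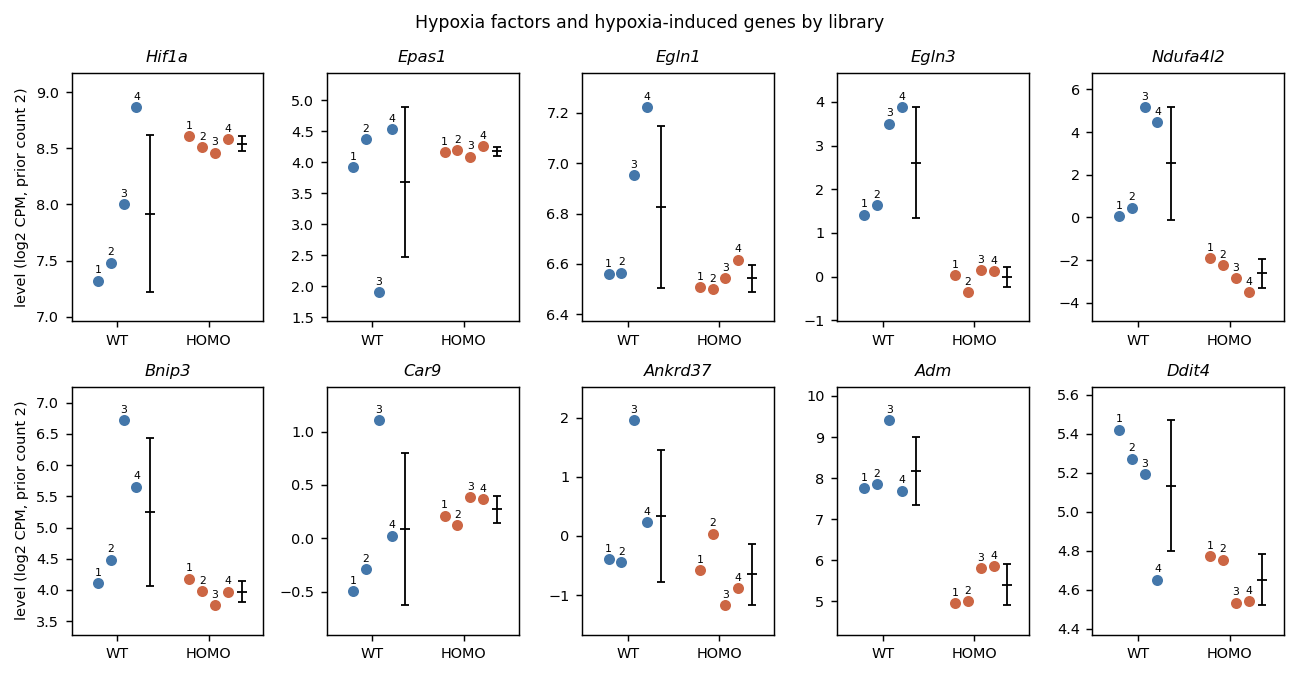
Level of each of the 10 members in each of the 8 libraries, in log2 CPM with a prior count of 2, with WT in blue and HOMO in red. Library numbers stand beside the points, and a black bar gives the group mean with its SD. Ndufa4l2 held 0 counts in HOMO4, so that point is set by the prior count. The 4 HOMO libraries lie close together for most members, while WT3 and WT4 lie above WT1 and WT2 for 7 of the 10.

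Hif1a (chr12:73901375-73947530, plus strand) encodes the alpha subunit of HIF-1. It was measured at 159.8, 179, 256 and 467 CPM in WT1 to WT4 and at 391, 364, 352 and 384 CPM in HOMO1 to HOMO4. WT4 was the highest library of all and the other 3 WT libraries lay below every HOMO library, so the groups overlapped. The means were 266 ± 141 CPM in WT and 373 ± 17.6 in HOMO (SD, n = 4 each), and the log2 fold change of HOMO against WT was 0.49 (SE 0.32), which did not pass the edgeR test (adjusted p = 0.319). WT4 decided the call. Without it the log2 fold change was 0.91 with an edgeR adjusted p of 0.0219. The other genes of chromosome 12 were also high in WT4, with a median of 0.65 on the log2 scale above the other WT libraries over 500 tested genes. With each library scaled per chromosome, the log2 fold change of Hif1a was 0.26.

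Epas1 (chr17:86753700-86833410, plus strand) encodes HIF-2α, the alpha subunit best known from endothelium and interstitial cells. Its levels were 15.0, 20.6, 3.67 and 23.0 CPM in WT1 to WT4 and 17.7, 18.2, 16.9 and 19.0 CPM in HOMO1 to HOMO4. The HOMO libraries lay inside the WT range, and WT3 was the one low library. The means were 15.6 ± 8.61 and 18.0 ± 0.870 CPM, with a log2 fold change of 0.21 (SE 0.45, edgeR adjusted p = 0.789). Per length, Epas1 stood at 3.22 CPM per kb in HOMO against 63.2 for Hif1a.

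Egln1 (chr8:124908587-124949324, minus strand) encodes PHD2, the main oxygen-sensing prolyl hydroxylase of most cells. It was at 94.3, 94.6, 124 and 149 CPM in WT1 to WT4 and at 91.0, 90.4, 93.1 and 98.1 CPM in HOMO1 to HOMO4. WT1 and WT2 lay within the HOMO range and WT3 and WT4 above it. The log2 fold change was -0.31 (SE 0.17) and did not pass the edgeR test (adjusted p = 0.234). Genes of chromosome 8 had a median log2 fold change of 0.38, and with the scaling per chromosome Egln1 reached -0.71 with an edgeR adjusted p of 0.0373.

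Egln3 (chr12:54178981-54203860, minus strand) encodes PHD3, a prolyl hydroxylase that is itself strongly induced by HIF. It was measured at 2.59, 3.0, 11.2 and 14.7 CPM in WT1 to WT4 and at 0.936, 0.696, 1.01 and 1.00 CPM in HOMO1 to HOMO4. Every HOMO library lay below every WT library, and WT3 and WT4 were higher than WT1 and WT2 by 4.64-fold on average. The counts behind these values were 46 to 379 in WT and 20 to 23 in HOMO. The means were 7.88 ± 6.03 CPM in WT and 0.912 ± 0.148 in HOMO, and the log2 fold change was -3.11 (SE 0.61, edgeR adjusted p = 0.0157). The call was lost without HOMO1 (adjusted p = 0.0604) or without HOMO2 (adjusted p = 0.0645), each still by edgeR, and with near-identical libraries summed (adjusted p = 0.268). Against WT1 and WT2 alone the log2 fold change was -1.62, and against WT3 and WT4 alone it was -3.83.

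Ndufa4l2 (chr10:127514967-127517154, plus strand) encodes a mitochondrial protein that is induced by HIF-1 and is known to lower the activity of complex I of the respiratory chain. It was measured at 0.956, 1.29, 35.8 and 21.9 CPM in WT1 to WT4 and at 0.178, 0.121, 0.0507 and 0 CPM in HOMO1 to HOMO4. The counts were 17, 30, 624 and 565 in WT and 4, 4, 1 and 0 in HOMO. Every HOMO library lay below every WT library, and within WT the levels of WT3 and WT4 were 25.7-fold those of WT1 and WT2. The means were 15.0 ± 17 CPM in WT and 0.0875 ± 0.0783 in HOMO, and the fitted log2 fold change was -7.26 (SE 1.47). That value depends on the prior count of the fit, as HOMO3 and HOMO4 held 1 and 0 counts. Pooled over the libraries there were 1236 counts in WT and 9 in HOMO, a ratio of 154.9. Its 95% exact interval of 81.4 to 339.7 covers counting error only. The interval leaves out the spread between libraries and is no test, as the fall of Ndufa4l2 chose the set. Against WT1 and WT2 alone the log2 fold change was -3.53, and against WT3 and WT4 alone it was -8.19. Of its exon bases, 2.92% are shared with Shmt2 on the opposite strand.

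Ndufa4, the paralog of Ndufa4l2 that is a standing part of the respiratory chain, was not called, with a log2 fold change of -0.22 (edgeR adjusted p = 0.419) and levels of 120.1 ± 26.7 CPM in WT and 103 ± 10.9 in HOMO. Cox4i1, the usual form of a cytochrome oxidase subunit, was not called either (log2 fold change 0.24, edgeR adjusted p = 0.503). Cox4i2, the form that hypoxia induces, did not exceed 0.574 CPM in any library and was not tested.

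Bnip3 (chr7:138890836-138909519, minus strand) encodes a receptor on the outer mitochondrial membrane that directs mitochondria to autophagy. Its levels were 17.2, 22.3, 105 and 50.3 CPM in WT1 to WT4 and 18.1, 15.7, 13.4 and 15.6 CPM in HOMO1 to HOMO4. HOMO1 lay above WT1, so the groups overlapped, and WT3 and WT4 were 3.94-fold above WT1 and WT2. The log2 fold change of -1.63 (SE 0.52) did not pass the edgeR test (adjusted p = 0.0721), while DESeq2 called it (adjusted p = 0.0124). Against WT1 and WT2 alone the log2 fold change was -0.33 (SE 0.16), and against WT3 and WT4 alone it was -2.30 (SE 0.28). Of its exon bases 22.3% are shared with the antisense gene Gm45507, and the strand setting of the counting is not given in the sources used here.

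Car9 (chr4:43506966-43513729, plus strand) encodes a carbonic anhydrase at the cell surface that helps cells export acid. It was at 0.619, 0.729, 2.07 and 0.929 CPM in WT1 to WT4 and at 1.07, 0.998, 1.22 and 1.2 CPM in HOMO1 to HOMO4, with 11 to 36 counts per library. WT3 lay above and the other 3 WT libraries below every HOMO library, and the log2 fold change was 0.05 (SE 0.42, edgeR adjusted p = 0.948). Ankrd37 (chr8:45996902-46005707, minus strand), a small ankyrin-repeat protein induced by HIF-1, was at 0.675, 0.643, 3.79 and 1.08 CPM in WT1 to WT4 and at 0.580, 0.938, 0.355 and 0.451 CPM in HOMO1 to HOMO4. WT3 was again the highest library and HOMO2 lay above WT1 and WT2. The log2 fold change was -1.37 (SE 0.65, edgeR adjusted p = 0.181), on 7 to 66 counts per library. Neither difference was larger than the spread between libraries.

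Adm (chr7:110627661-110629820, plus strand) encodes adrenomedullin, a secreted peptide that widens blood vessels and tightens their endothelial barrier. It was measured at 216, 232, 680.4 and 207 CPM in WT1 to WT4 and at 30.8, 31.8, 55.7 and 57.9 CPM in HOMO1 to HOMO4. Every HOMO library lay below every WT library. WT3 stood far above the other WT libraries, which lay within a narrow range, and HOMO3 and HOMO4 lay above HOMO1 and HOMO2. The means were 334 ± 231 CPM in WT and 44.0 ± 14.7 in HOMO, a 7.58-fold ratio, and the fitted log2 fold change was -2.92 (SE 0.46). Against WT1 and WT2 alone it was -2.35, and against WT3 and WT4 alone -3.33. Genes of chromosome 7 had a median log2 fold change of -0.29, and with the scaling per chromosome Adm was at -2.64.

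Ddit4 (chr10:59949669-59951834, minus strand) encodes REDD1, a stress-induced inhibitor of the growth kinase complex mTORC1. It was at 42.8, 38.6, 36.4 and 25 CPM in WT1 to WT4 and at 27.2, 26.9, 23.1 and 23.2 CPM in HOMO1 to HOMO4. WT1, WT2 and WT3 lay above every HOMO library and WT4 lay among them. Unlike the other members with a split among WT libraries, Ddit4 was lower in WT3 and WT4 than in WT1 and WT2, an order found in 28.6% of all genes. The log2 fold change was -0.51 (SE 0.18) and did not pass the edgeR test (adjusted p = 0.0960). Without WT4 it was -0.64 with an edgeR adjusted p of 0.0215.

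The split of the WT libraries thus ran through most members. WT3 and WT4 were both above WT1 and WT2 in 7 of the 10, namely Hif1a, Egln1, Egln3, Ndufa4l2, Bnip3, Car9 and Ankrd37, against 30.9% of all genes tested. The macrophage markers had the same order: all 6 were higher in WT3 and WT4, led by Lyz2 at 87.7 and 113 CPM in WT1 and WT2 against 1707 and 912 in WT3 and WT4, and at 12.9 to 106 CPM in HOMO. Smooth muscle markers summed to 827 to 2835 CPM in WT and 206 to 1525 in HOMO, with the highest sum in WT3, and 5 of the 6 were higher in WT3 and WT4. Pericyte markers summed to 51.0 to 75.3 CPM in WT and 30.8 to 64.9 in HOMO, and the defining pericyte gene Higd1b had 3 or fewer counts in every library. One pericyte marker, Rgs5, was called as lower in HOMO (log2 fold change -5.20, edgeR adjusted p = 0.0486), at 3.32, 3.86, 0.689 and 36.1 CPM in WT1 to WT4 and at most 0.659 CPM in HOMO. Its groups did not overlap, and its WT level was mostly that of WT4. The other tested pericyte markers were not called, with log2 fold changes of -1.42 for Mcam, -0.31 for Cspg4 and 0.18 for Notch3. Higd1b, Cox4i2, Kcnj8 and Abcc9 were not tested. Of the endothelial markers, Cldn5, Tie1 and Emcn had 3 or fewer counts in every library. Mesothelial markers also had the order of the split, with sums of 21.3 and 23.4 CPM in WT1 and WT2, 155 and 117 in WT3 and WT4, and 90.5 to 130 in HOMO, and all 5 were higher in WT3 and WT4. The mesothelial marker gene Wt1 was itself higher in HOMO (3.26 ± 3.64 against 33.3 ± 6.50 CPM, log2 fold change 3.36, edgeR adjusted p = 0.0166). Epithelial markers summed to at most 16.1 CPM, with Cdh1 called as higher in HOMO. Of the 10 fibroblast markers, Pdgfrb and Vim were called as lower and 0 as higher. Among those not called, Col1a1 (0.82), Col1a2 (0.66), Col3a1 and Pdgfra had log2 fold changes above 0. Dcn, Lum, Thy1 and Fn1 had log2 fold changes below 0. The part of these other cell types in the members' levels was not tested.

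**Figure D2:**
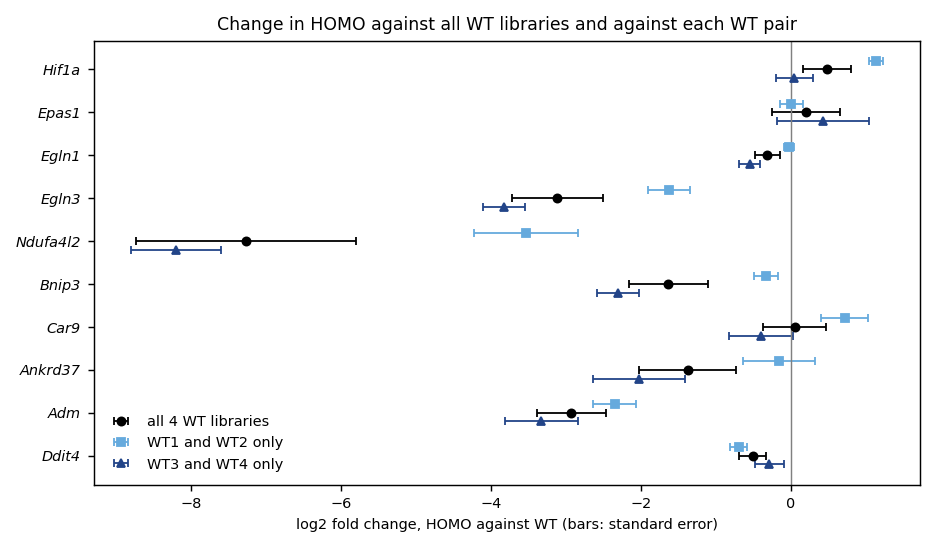
Log2 fold change of each member in HOMO against all 4 WT libraries, against WT1 and WT2 alone and against WT3 and WT4 alone, with bars for the standard error. Ndufa4l2 moves from -3.53 to -8.19 with the WT libraries used and Hif1a from 1.14 to 0.04, while Adm stays between -2.35 and -3.33.

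With WT1 and WT2 alone as the controls, 3 of the 8 members not chosen by their values were called by edgeR, beside 20.9% of all genes tested in that fit. Egln3 and Ddit4 were lower and Hif1a was higher in HOMO, the last at a log2 fold change of 1.14 (SE 0.09, edgeR adjusted p = 6.4e-04). With WT3 and WT4 alone, 2 of the 8 were called, Egln3 and Bnip3, both lower, beside 22.0% of all genes. These fits share the HOMO libraries, and WT1 and WT2 are so close that the spread in the first of them is small. They were added after the split had been seen.

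The genes most like Ndufa4l2 over the 8 libraries, by the root mean square difference of centred log2 CPM, were Sod3 (1.37), Gm21451 (1.39), Rapsn (1.43), the macrophage complement gene C1qa (1.44) and Dkk2 (1.45). Those most like Adm were Vax2 (0.222), Plac8 (0.240), Gstm7 (0.284), Tchh (0.286) and Fibin (0.312). None of these neighbours is a gene of the hypoxia lists described next. The distance is not scaled for the range of a gene. Ndufa4l2 ran from 5.17 log2 CPM in WT3 to -3.49 in HOMO4, which held 0 counts, and Adm from 9.41 in WT3 to 4.95 in HOMO1. The distances of Ndufa4l2 and of Adm therefore cannot be compared.

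The rest of the pathway was described with 93 further genes in lists by role, of which 89 were tested. Of these, 20 were called, 3 as higher and 17 as lower in HOMO, or 22.5% beside the 12.1% of all genes, and their median log2 fold change was -0.34. With near-identical libraries summed, 0 of the 20 were called. In that fit 21 pathway genes had an unadjusted p under 0.05, beside 12.8% of all genes. Each of the 20 lost its call in 1 to 13 of the 17 alternative fits. All 17 lower genes were among the 57 tested genes of the hypoxia-induced lists, and the median of those lists was -0.57.

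**Figure D3:**
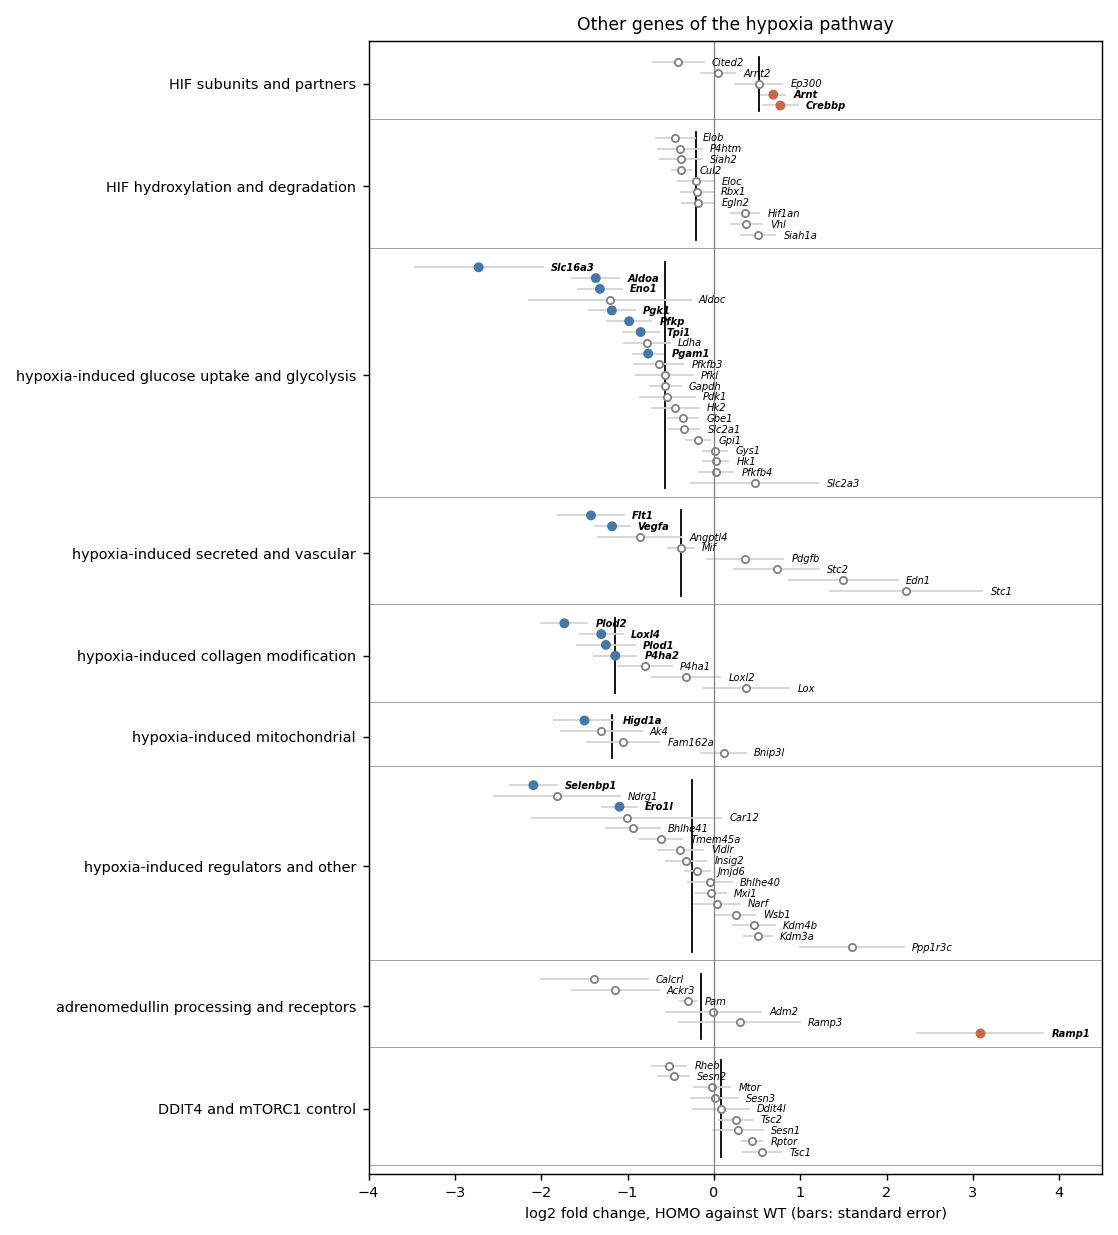
Log2 fold change of HOMO against WT for the other tested genes, all but 1, of the HIF factor, hypoxia-target, adrenomedullin and mTORC1 lists, with bars for the standard error, filled points and bold names for called genes and a black line at the median of each list. The called genes shown of the hypoxia-induced lists all lie to the left of 0, and the only called genes to the right are Arnt, Crebbp and Ramp1.

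Among the partners of the HIF alpha subunits, 2 of 5 tested genes were called as higher in HOMO, beside 5.94% of all genes. Arnt, the constant subunit of the dimer, was at 55.5, 58.3, 59.4 and 68.8 CPM in WT1 to WT4 and at 113, 108, 80.1 and 88.8 CPM in HOMO1 to HOMO4, a log2 fold change of 0.69 (SE 0.15, edgeR adjusted p = 0.0221). The groups did not overlap, and the WT libraries lay close together. Crebbp, a histone acetyltransferase that HIF recruits, had a log2 fold change of 0.77 (SE 0.21, edgeR adjusted p = 0.0477), with 39.8 ± 10.7 CPM in WT and 67.8 ± 9.09 in HOMO. Crebbp lost its call in 13 of the 17 alternative fits, among them RLE normalization and 7 of the 8 fits that left out 1 library, and Arnt lost it in 6, among them the fit against WT3 and WT4 alone. Hif3a was not tested. Of the 10 genes that hydroxylate or degrade the alpha subunits, 0 were called by edgeR, 2 had an unadjusted p under 0.05 (32.3% of all genes did), and the median log2 fold change was -0.20. The smallest adjusted p was 0.0725, for Cul2, the scaffold of the VHL ligase, at -0.38 (edgeR). The next was Siah1a, a ubiquitin ligase that acts on prolyl hydroxylases, at 0.51 (edgeR adjusted p = 0.129).

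Of the 21 tested genes of glucose uptake and glycolysis, 7 were called as lower in HOMO and 0 as higher, beside 6.18% and 5.94% of all genes. Among the 7, the calls of Aldoa and Eno1 were each lost in 3 of the 17 alternative fits and that of Pfkp in 12. Aldoa was at 632, 599, 1379 and 1127 CPM in WT1 to WT4 and at 328, 349, 381 and 389 CPM in HOMO1 to HOMO4, a log2 fold change of -1.37 (SE 0.28, edgeR adjusted p = 0.0189). Its groups did not overlap, and WT3 and WT4 were the high libraries. Eno1 (-1.32), Pgk1 (-1.18), Pfkp (-0.98), Tpi1 (-0.85) and Pgam1 (-0.76) were also lower on the log2 scale, with edgeR adjusted p from 0.0166 to 0.0452. The lactate exporter Slc16a3 was at 5.51, 6.69, 56.5 and 17.8 CPM in WT1 to WT4 and at 2.50, 2.03, 4.66 and 3.91 CPM in HOMO1 to HOMO4. Its log2 fold change was -2.73 (SE 0.75, edgeR adjusted p = 0.0464), and WT3 was far above the rest. Ldha, which makes lactate, was at -0.78 and was not called (edgeR adjusted p = 0.0956).

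Of the 9 tested genes for secreted and vascular proteins, 3 were called as lower, Vegfa and Flt1 among them, beside 6.18% of all genes. The call of Vegfa was lost in 3 of the 17 alternative fits and that of Flt1 in 11. Vegfa, the main growth factor for blood vessels, was at 386, 341, 210.0 and 428 CPM in WT1 to WT4 and at 144, 143, 155 and 162 CPM in HOMO1 to HOMO4, a log2 fold change of -1.18 (SE 0.21, edgeR adjusted p = 0.0123). Flt1, a receptor of VEGFA, fell by 1.42 on the log2 scale (edgeR adjusted p = 0.0451). In both Vegfa and Flt1 WT3 was the lowest WT library, the reverse of Adm. Of this list, 0 genes had WT3 and WT4 both above WT1 and WT2. Stc1 at 2.23 and Edn1 at 1.50 were the largest log2 fold changes above 0 and were not called.

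The collagen-modifying enzymes had the largest share of called genes of these lists, 4 of 7, beside 12.1% of all genes, with a list median of -1.14. Plod2 lost its call in 1 of the 17 alternative fits, Loxl4 in 4, P4ha2 in 5 and Plod1 in 8. Plod2, a lysyl hydroxylase that sets collagen cross-links, was at 373, 401, 228 and 606 CPM in WT1 to WT4 and at 108, 108, 127 and 142 CPM in HOMO1 to HOMO4, a log2 fold change of -1.73 (SE 0.28, edgeR adjusted p = 0.0081). The groups did not overlap although WT3 and WT4 lay at opposite ends of the WT range. Loxl4 (-1.31), Plod1 (-1.25) and the prolyl hydroxylase gene P4ha2 (-1.14) were also lower, with edgeR adjusted p of 0.0165, 0.0466 and 0.0242. Lox, the founding cross-linking enzyme of the family, was not called.

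Of the 4 tested mitochondrial genes, Higd1a was lower at -1.50 (SE 0.36, edgeR adjusted p = 0.0316), and 22.5% of its exon bases are shared with other genes. All 4 were higher in WT3 and WT4 than in WT1 and WT2, as in Ndufa4l2 and Bnip3. Of the 16 other hypoxia-induced genes, Selenbp1, which codes for a methanethiol oxidase, was lower at -2.09 (SE 0.28, edgeR adjusted p = 0.0047), and so was Ero1l, an oxidase of protein folding, at -1.09 (SE 0.21, edgeR adjusted p = 0.0156). Ndrg1 was at 6.98, 6.86, 76.8 and 40.2 CPM in WT1 to WT4 and at 8.07, 7.62, 9.33 and 12 CPM in HOMO1 to HOMO4. WT1 and WT2 lay below every HOMO library, and it was not called.

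Over the 57 tested hypoxia-induced genes, WT3 and WT4 were both above WT1 and WT2 in 31, or 54.4%, beside 30.9% of all genes. All 4 HOMO libraries lay below all WT libraries in 21, beside 13.4% of all genes, and above them, which 14.0% of all genes did, in 1, the glycogen phosphatase subunit gene Ppp1r3c, which is named because of its values. Of the 17 called genes, 13 were called against WT1 and WT2 alone and 16 against WT3 and WT4 alone, in comparisons that share the HOMO libraries. In the first of these comparisons 7 hypoxia-induced genes were called as higher in HOMO and 17 as lower, beside 11.8% and 9.12% of all genes. In the second they were 1 and 23, beside 9.51% and 12.5%. Without HOMO1 or without HOMO2, 3 and 2 of the hypoxia-induced genes were called, beside 3.52% and 3.56% of all genes.

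**Figure D4:**
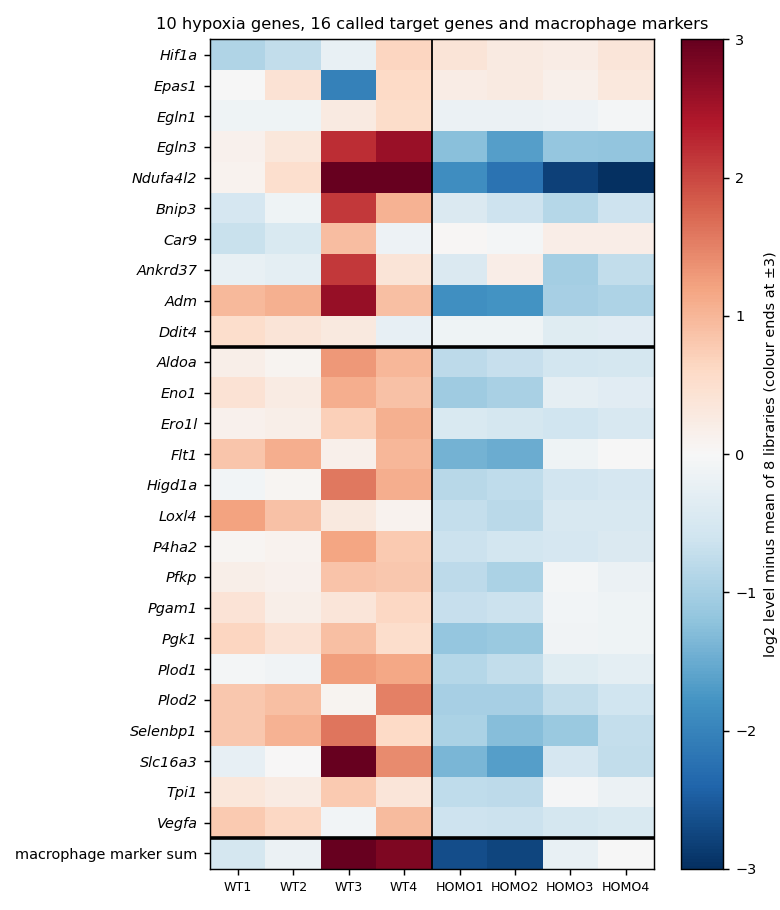
Log2 CPM of the 10 members and of 16 of the 17 called hypoxia-induced genes in each library, centred on the mean over the 8 libraries with colours ending at 3 above or below it, and the macrophage markers as log2 of their summed CPM on the last line. The HOMO columns are below the mean for most of these genes, and the WT3 and WT4 columns are the highest for Ndufa4l2, Egln3 and Bnip3 as they are for the macrophage markers.

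The enzyme PAM adds the amide end of active adrenomedullin, which acts on the receptor CALCRL together with RAMP2 or RAMP3. Of the 6 tested genes of this list, Ramp1, which turns CALCRL into a receptor for the related peptide CGRP, was higher in HOMO. It was at 0.113, 0.300, 2.01 and 0.542 CPM in WT1 to WT4 and at 7.85, 8.05, 4.82 and 4.16 CPM in HOMO1 to HOMO4, a log2 fold change of 3.08 (SE 0.75, edgeR adjusted p = 0.0318). That call was lost in 8 of the 17 alternative fits. Calcrl was at 3.87 to 5.18 CPM in WT and at 0.267, 0.968, 3.35 and 2.66 CPM in HOMO1 to HOMO4. Its groups did not overlap, but the difference did not pass the edgeR test (log2 fold change -1.39, adjusted p = 0.166), and HOMO3 and HOMO4 lay closer to WT. Pam was at -0.30 (edgeR adjusted p = 0.0966). Ramp2 did not exceed 0.862 CPM in any library and was not tested.

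Of the 9 genes of mTORC1 control that act beside Ddit4, 0 were called by edgeR and 4 had an unadjusted p under 0.05, beside 32.3% of all genes. Rptor, the scaffold of the complex, had a log2 fold change of 0.44 with all HOMO libraries above WT, which did not pass the test (edgeR adjusted p = 0.0521). Rheb, the activator of the kinase, was at -0.52 (edgeR adjusted p = 0.128). The list median was 0.08.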

How the data were processed

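The deposited table holds raw gene counts per library. Before deposition the authors used fastp for trimming, STAR for alignment to mm10 and featureCounts for counting, with versions not given in the sources used here. The libraries were made with a NEBNext Ultra RNA kit, and the strand setting of the counting is not given. The deposited name of the table speaks of a removed outlier, and which library was meant is not stated. All 8 library columns were used, so 0 were left aside.

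Counts of HOMO and WT were compared with the quasi-likelihood F test of edgeR 4.0.16 in R 4.3.3, with filterByExpr by genotype, TMM scaling and Benjamini-Hochberg adjustment over 14150 genes. CPM levels use TMM-scaled library sizes. The standard error is the absolute log2 fold change over the square root of F, and a prior count of 2 was used for log2 CPM. Library totals of 17236521 to 31987790 counts set the precision, and genes with 3 or fewer counts per library were taken as at the floor. DESeq2 1.42.0, RLE factors, other filters, the replicate number as a block, each library left out, near-identical libraries summed, a scaling per chromosome and no fold threshold were the alternatives. The fits against WT1 and WT2 alone and against WT3 and WT4 alone were chosen after seeing the data. The fit was also run on simulated counts with known changes, drawn independently for each library. They held no close libraries and no split among WT libraries, so they do not test the fit under those features.

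The members and all gene lists were chosen with earlier results of these data known. The text names every member, every called gene of the pathway lists but 1 that is counted and not reported here, for lists with none the 2 genes of smallest unadjusted p, and the 5 genes closest to Ndufa4l2 and to Adm. The uncalled genes Ldha, Ndrg1, Stc1, Edn1, Lox, Ppp1r3c, Calcrl, Pam and Ramp2 were added after their values had been seen. Positions and exon lengths are from GENCODE M21 for GRCm38, in which 14084 of the tested genes were found. Promoters are from RefSeq on GRCm38.p6. Python 3.11.15 with pandas 2.3.3, numpy 2.4.6, scipy 1.17.1 and matplotlib 3.10.9 made the tables and figures.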

Additional observations from a re-analysis of the deposited data

Results flagged for a closer look

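Adm in WT3 stood at 9.41 log2 CPM, far above the other WT libraries at 7.70 to 7.86. The gap to the nearest of them was 0.907 of the whole range of the group, above the critical value of Dixon's test for 4 samples. The test was run on 20 groups, the 10 members in each genotype. Chance alone would give about 1 such result in 20 groups of independent libraries. WT1 and WT2 were close throughout, as were HOMO1 and HOMO2 and HOMO3 and HOMO4, so that rate may not hold here. Without WT3 the log2 fold change of Adm in HOMO against WT was -2.31 (SE 0.25).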

How the results depend on the processing

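Of all genes tested, 1716 were called by edgeR and 2913 by DESeq2, 507 to 2192 with 1 library left out, and 0 with near-identical libraries summed to 3 WT and 2 HOMO units, where 2057 of 16130 genes had an unadjusted p under 0.05. Against WT1 and WT2 alone the count was 3117, and against WT3 and WT4 alone 3271. With the replicate block it was 947, or 6.69% of all genes. Same-numbered libraries did not deviate together (r from -0.12 to 0.01), so the block pairs libraries by number only, and under it 14 other pathway genes were called, 0 of them as higher in HOMO, and Egln3 kept its call. Of the 8 members not chosen by their values, 1 was called by edgeR, Egln3. With 1 library left out 0 to 3 of the 8 were called, beside 3.52% to 15.0% of all genes. Without HOMO1 or without HOMO2 it was 0, beside 3.52% and 3.56%. With near-identical libraries summed, 0 of the 8 were called by edgeR, and Egln3 was at -3.39 (edgeR adjusted p = 0.268). DESeq2 called 2 of the 8, Egln3 and Bnip3, beside 16.5% of the genes it tested. Of the other pathway genes 20 were called, or 22.5% of those tested beside 12.1% of all genes. With 1 library left out it was 2 to 22, beside the 3.52% to 15.0% of all genes. It was 3 without HOMO1 and 2 without HOMO2. With near-identical libraries summed 0 were called and 21 had an unadjusted p under 0.05. The log2 fold change of Epas1 ran from -0.12 without WT3 to 0.46 with 1 library left out. That of Car9 ran from -0.14 to 0.55, and was -0.14 without WT1, -0.10 without WT2 and -0.02 without WT4, -0.10 with libraries summed and -0.40 against WT3 and WT4 alone. The cause of these changes was not tested. Against WT1 and WT2 alone 5 members were called if Ndufa4l2 and Adm are counted. The calls of Ndufa4l2 and Adm are no test, since their fall was known when the set was chosen. Of the 8 members not chosen by their values, 3 were called in that fit, beside 20.9% of all genes. Egln3, Ndufa4l2 and Adm had a log2 fold change below 0 in each of the 17 alternative fits that tested them, as did Egln1, Bnip3, Ankrd37 and Ddit4. For Egln3, Ndufa4l2 and Adm every HOMO library lay below every WT library, so leaving libraries out could not change the sign. The fall of Ndufa4l2 and Adm also chose the set. Ndufa4l2 and Ankrd37 were not tested where CPM above 1 in at least 4 libraries was required.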
